A study of Mus musculus with 16 samples.

Results

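Resting mouse mast cells, which the submitters call immature, were treated with control IgG and compared after 16 h and after 2 h of culture, in the Cy3 channel of 8 of the 16 arrays of the study (4 arrays at each time). The cells were bone marrow cells grown for more than 4 weeks in RPMI with 10% serum, interleukin 3 (5 ng/ml) and stem cell factor (40 ng/ml), and the submitters give a purity above 90% for cells with both the IgE receptor and Kit. Both resting groups received goat IgG at 15 ug/ml for 2 h or for 16 h, without IgE and without antigen. The Cy5 channel of the same arrays holds cells given an agonist goat antibody against TIM-3 (15 ug/ml) for the same time. The other 8 arrays hold cells sensitized with anti-DNP IgE (5 ug/ml, 1 h) and then given the antigen DNP-HSA (100 ng/ml) with IgG (Cy3) or with the antibody (Cy5). The question is what changes with culture time alone, in the absence of antigen and of anti-TIM-3. No group of untreated cells, and no culture before the IgG was added, enters the comparison, so the time in culture and the time with IgG cannot be told apart. The labels do not say whether replicates came from separate cultures or mice, and the p-values therefore reflect how far these samples scatter, a scatter that could be technical.

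Mast cells grown in interleukin 3 and stem cell factor keep dividing in culture, and both factors reach the nucleus in part through STAT5. Genes for DNA replication are switched on by E2F factors as a cell passes from G1 into S phase, and genes for mitosis follow under a promoter code made of CCAAT boxes and cell cycle homology regions. Several stress programmes have their own triggers: ATF4 answers amino acid shortage, NRF2 answers oxidants, and HSF1 answers unfolded protein in the cytosol. Mast cells also store histamine and proteases in granules and secrete eicosanoids and cytokines when stimulated.

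The mast cell markers were present on all 8 arrays. Kit, the stem cell factor receptor, had log2 Cy3 intensities (background-corrected and quantile-normalized) of 14.61, 14.80, 14.59 and 14.68 at 2 h and 14.88, 14.86, 14.55 and 14.84 at 16 h, for replicates 1 to 4 in that order here and below. Its groups overlapped, and the difference was 0.11 on the log2 scale (SE 0.08, adjusted p = 0.304). Fcer1a, the IgE-binding chain of the receptor, lay between 14.95 and 15.52 at 2 h and between 15.01 and 15.68 at 16 h over the 7 arrays with an unflagged spot, a difference of -0.08 (SE 0.19, adjusted p = 0.754). Of the 10 mast cell markers 3 passed the test: Hdc, described below, Ms4a2 (the beta chain of the IgE receptor, 0.31 ± 0.07, adjusted p = 0.00394, lost with median centring) and the chymase Mcpt4 (-0.26 ± 0.09, adjusted p = 0.0445), whose call was lost without any one of 5 arrays and whose change turned to 0.13 with the mean of its probes. The carboxypeptidase Cpa3 (-0.01), the chymase Cma1 (0.02), the tryptase Tpsb2 (0.09) and the factors Gata2 (0.00) and Mitf (-0.02) had overlapping groups and did not pass.

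Macrophage and interferon genes differed between replicate numbers at both times. Csf1r, the macrophage growth factor receptor, read 9.91, 8.26, 9.21 and 9.76 at 2 h and 10.21, 8.39, 9.11 and 9.74 at 16 h. Replicate 1 was highest and replicate 2 lowest at both times, and the mean difference with time was 0.08 (SE 0.44, adjusted p = 0.901). Fcgr1, the high-affinity IgG receptor, read 10.24, 8.24, 8.74 and 8.80 at 2 h and 11.51, 9.49, 9.60 and 10.02 at 16 h: it was higher at 16 h in each same-numbered pair, and the groups overlapped (1.15, SE 0.51, adjusted p = 0.0949, and 3.78e-05 with the replicate number as a block). The interferon regulator Irf7 read 9.68, 7.70, 8.19 and 8.54 at 2 h and 10.75, 9.06, 8.87 and 9.33 at 16 h, and the interferon-induced chemokine Cxcl10 read 10.61, 8.28, 8.96 and 9.57 at 2 h and 9.23, 7.58, 7.75 and 7.57 at 16 h, highest in replicate 1 at each time. With the block both passed: Irf7 rose by 0.97 (adjusted p = 0.000355, against 0.13 without it) and Cxcl10 changed by -1.32 (0.000881, against 0.0603). These 4 genes were named after their values were seen.

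**Figure D1:**
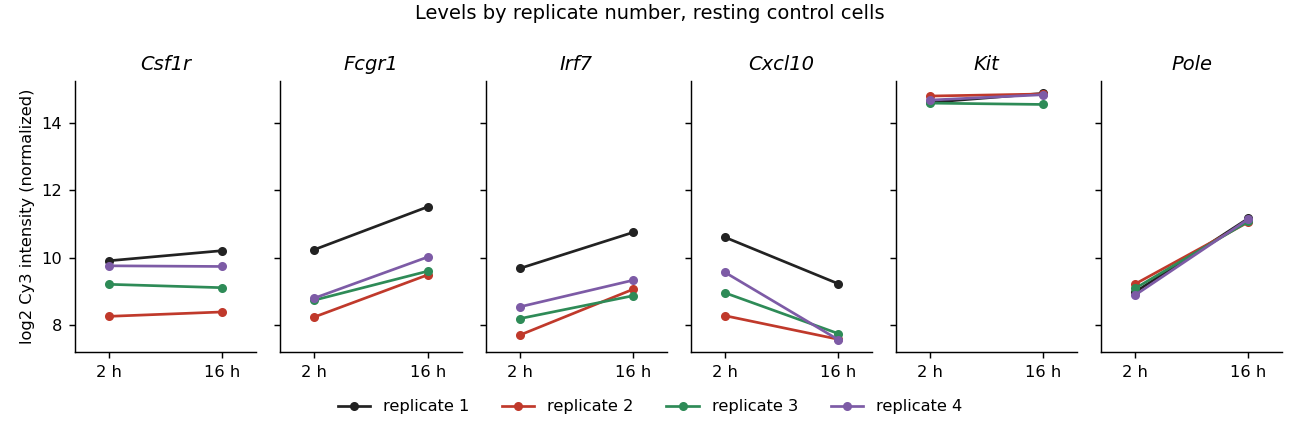
Normalized log2 Cy3 intensity at 2 h and 16 h with a line for each replicate number. Csf1r, Fcgr1, Irf7 and Cxcl10 are highest in replicate 1 at both times, while the lines of Kit and Pole lie close together.

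Of 24 markers of macrophages and dendritic cells 21 were tested. Their summed normalized intensity over 20 genes ran from 21014 to 49514 at 2 h and from 30707 to 64008 at 16 h, and in both groups replicate 2 was lowest. Without the replicate number in the fit 4 rose (19%) and 3 fell (14.3%), both below the shares of all genes, 23.1% and 21% (2 higher without the 16 h array of replicate 4, and 0 to 3 lower over the arrays left out), and with it as a block 11 rose and 5 fell, against 24.3% and 21.8% of all genes in that fit. Ccr2 (0.81 ± 0.08) and Cx3cr1 (0.75 ± 0.12) rose with groups that did not overlap, which held for 43.3% of all genes. With median centring 1 of the 21 markers was called, higher. The calls of Adgre1 (0.79 ± 0.24, an adhesion receptor of macrophages) and Mrc1 (0.75 ± 0.21) were lost without the 16 h array of replicate 4, of Adgre1 also without that of replicate 1. The complement gene C1qc fell by 0.28 ± 0.09, a call lost with the slide as a block and without any one of 4 arrays. The list's median was -0.11, -0.61 and 1.42 within the 3 slides, and the arrays compared within a slide mostly carry different replicate numbers.

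Between 2 h and 16 h the resting cells gained mRNA of genome duplication, mitosis and cholesterol synthesis and lost mRNA of amino acid shortage, antioxidant defence, ribosome assembly and histamine synthesis. Of 15739 genes tested, 6950 (44.2%) passed an adjusted p of 0.05 (limma's moderated test, Benjamini-Hochberg over all genes tested), 3641 higher (23.1%) and 3309 lower (21%) at 16 h. These shares are the background for the count of every list below. The changes were mostly small: the median size among called genes was 0.386 on the log2 scale, with 356 rises and 211 falls of 2-fold or more and 19 rises and 28 falls of 4-fold or more. The median over all genes was -0.012. With each array centred on its median in place of quantile normalization, the counts were 721 higher and 236 lower (median over all genes 0.077). With the 75th percentile they were 2066 and 2195 (median -0.081). In bulk RNA, more cells in a state and more RNA per cell cannot be told apart.

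Arrays of one time correlated at 0.992 to 0.998 over genes and arrays of different times at 0.978 to 0.984. Between 53.4% and 61.8% of probes were well above background in Cy3 on the 8 arrays, and none was saturated. Of the 4 slides 3 held both times. The 30 genes with the largest changes were picked with groups that do not overlap. Their direction within each of these slides was therefore fixed by the choice and tells nothing about the slides. All 30 stayed called with median centring.

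**Figure D2:**
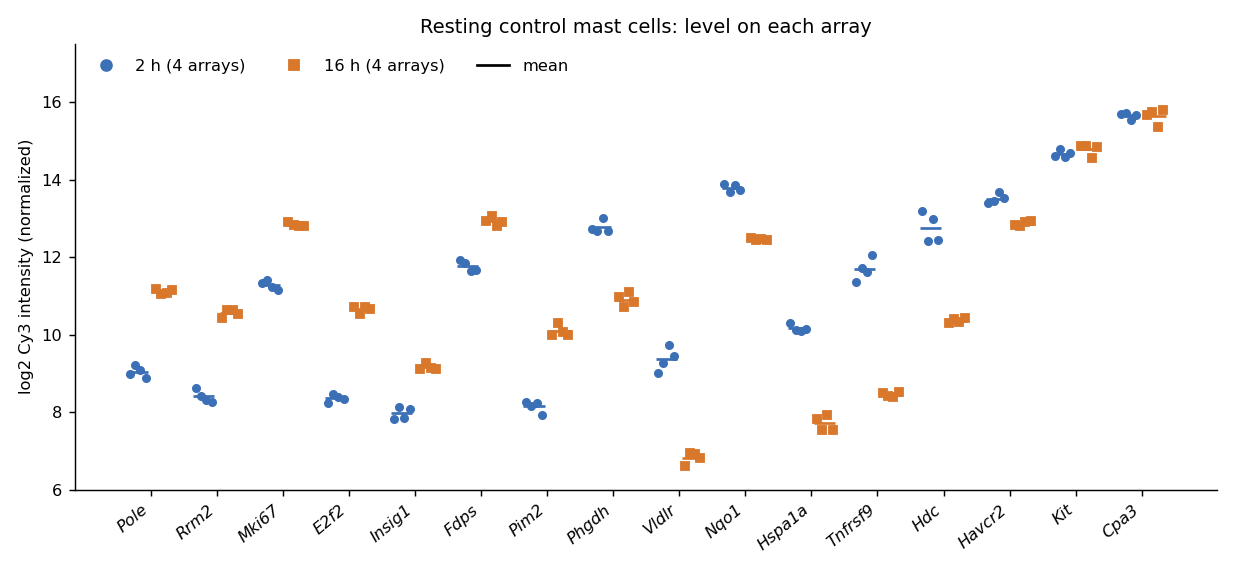
Normalized log2 Cy3 intensity of 16 genes on each of the 4 arrays at 2 h (circles) and the 4 at 16 h (squares), with the group means as lines. Genes of replication, mitosis, cholesterol synthesis and STAT5 signalling lie higher at 16 h, stress and histamine genes lie lower, and Kit and Cpa3 overlap.

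The replication genes were higher at 16 h almost throughout. Of 39 tested, 38 rose and none fell, against 23.1% of all genes called higher, and their median change was 0.98. Pole, the catalytic subunit of the leading-strand polymerase, read 8.98, 9.22, 9.09 and 8.89 at 2 h and 11.17, 11.06, 11.08 and 11.15 at 16 h. All 4 late arrays stood above all 4 early ones, by 2.07 ± 0.07 (SE; 4.21-fold, adjusted p = 8.27e-08). The ribonucleotide reductase subunit Rrm2, which makes the deoxynucleotides of S phase, read 8.63, 8.41, 8.32 and 8.26 at 2 h and 10.44, 10.64, 10.64 and 10.54 at 16 h, a rise of 2.16 ± 0.09 (adjusted p = 1.41e-07). Thymidine kinase Tk1 rose by 2.14 ± 0.09, the DNA methylation maintenance factor Uhrf1 by 1.96 ± 0.07 and the GINS helicase subunit Gins1 by 1.47 ± 0.05. Pcna, the sliding clamp, was the 1 member that did not pass (0.33). It was named after its value was seen. With median centring 16 of the 39 were called, all higher, and the median was 1.11.

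Several of the largest rises outside that list are also known from replicating cells. Pclaf, a partner of PCNA, rose by 2.31 ± 0.09 (4.95-fold) and Fanci, a Fanconi anaemia protein of DNA crosslink repair, by 2.24 ± 0.08. The kinase gene Pask, also among the largest rises but not counted with these, rose by 2.03 ± 0.06. E2f2, a transcription factor of the G1/S transition, read 8.24, 8.46, 8.38 and 8.33 at 2 h and 10.71, 10.52, 10.71 and 10.66 at 16 h and rose by 2.30 ± 0.07 (4.91-fold, adjusted p = 3.96e-08). It led a list of 22 G1 cyclins, E2F factors and inhibitors of cyclin-dependent kinases, of which 15 rose and 3 fell (median 0.55). Ccne1, the cyclin that drives entry into S phase, read 9.75, 9.38, 9.63 and 9.32 at 2 h and 11.11, 11.23, 11.28 and 11.29 at 16 h, a rise of 1.70 ± 0.10. E2f8 (1.47 ± 0.09) and E2f1 (0.87 ± 0.06) rose, and so did the inhibitor Cdkn2c (1.14 ± 0.07). With median centring 7 of the 22 were called, all higher.

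Genes of mitosis were also higher at 16 h. Of 41 tested, 38 rose and none fell (median 0.81). Mki67, the Ki-67 proliferation antigen, read 11.34, 11.41, 11.23 and 11.15 at 2 h and 12.91, 12.84, 12.81 and 12.81 at 16 h, a rise of 1.56 ± 0.06 (2.95-fold, adjusted p = 1.77e-07). The condensin subunits Ncapg (1.72 ± 0.06) and Ncapd2 (1.5 ± 0.08), the spindle midzone protein Prc1 (1.24 ± 0.08) and the cytokinesis regulator Racgap1 (1.09 ± 0.06) rose, each with all late arrays above all early ones. With median centring 14 of the 41 were called, all higher.

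Promoter letters of these lists were read from the RefSeq windows of the mouse build GRCm38.p6, each 250 bases before to 50 bases after a gene's start, on both strands. One of the E2F spellings TTTCCCGC, TTTGGCGC or TTTCGCGC stood in 14 of the 33 replication genes with a window (42.4%) and in 2.12% of all 27025 genes with one, or 3.86% of the 10522 of them tested here. In the G1 list it stood in 6 of 17 (35.3%). The cell cycle homology region, TTTGAA, stood in 25 of 34 mitosis genes (73.5%) against 20.2% of all and 14.8% of tested genes, and the CCAAT box in 29 of them (85.3%) against 41.1% and 42.7%. A match describes the letters in the window and is no evidence of binding. Examples are shown because these genes rose and hold the letters, with the motif in capitals. The stretches are chr17:56304068-56304217, plus strand, chr9:65890258-65890372, plus strand, chr7:135716406-135716555, minus strand, and chr5:45669835-45669974, plus strand.
Uhrf1 (E2F): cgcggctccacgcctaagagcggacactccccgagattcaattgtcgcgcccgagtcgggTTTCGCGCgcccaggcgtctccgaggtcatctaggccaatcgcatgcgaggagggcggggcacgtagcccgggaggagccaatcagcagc
Pclaf (E2F): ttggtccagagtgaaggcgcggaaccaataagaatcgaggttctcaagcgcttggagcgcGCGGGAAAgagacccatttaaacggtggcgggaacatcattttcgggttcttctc
Mki67 (cell cycle homology region): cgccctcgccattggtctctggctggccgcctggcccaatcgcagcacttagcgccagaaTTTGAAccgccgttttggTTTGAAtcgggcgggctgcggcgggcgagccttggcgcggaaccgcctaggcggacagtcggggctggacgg
Ncapg (cell cycle homology region): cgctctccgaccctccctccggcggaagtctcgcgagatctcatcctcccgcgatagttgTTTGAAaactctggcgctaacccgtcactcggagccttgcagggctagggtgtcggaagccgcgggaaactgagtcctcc

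Replication-dependent histone genes did not rise with the replication list. Their mRNAs mostly end in a stem-loop in place of a poly(A) tail, and how well the labelling reaction copies such ends was not tested. Of 15 tested, 1 rose and 5 fell (median -0.11). The largest fall among them was H2ac18 (-1.44 ± 0.08), followed by H3c1 (-1.26 ± 0.10) and the linker histones H1f2 (-0.90 ± 0.09) and H1f3 (-0.81 ± 0.09), while the linker histone H1f5 rose by 0.63 ± 0.13, a call lost with median centring and with the 75th percentile. Those of H1f2 and H1f3 were lost with median centring. Near-identical histone genes can share probes, so single members are uncertain.

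Cholesterol synthesis and uptake rose as well. Of 25 genes tested, 24 rose and none fell (median 0.68), and the medians within the 3 slides were 0.74, 0.72 and 0.63. Groups did not overlap for 23 of the 25 (43.3% of all genes), which fixes the sign of the medians within slides. Insig1, the sterol-sensing anchor of SREBP that is itself an SREBP target, read 7.83, 8.12, 7.86 and 8.09 at 2 h and 9.1, 9.27, 9.15 and 9.12 at 16 h, a rise of 1.19 ± 0.08 (2.28-fold, adjusted p = 2.68e-06). Fdps, which makes farnesyl diphosphate, read 11.93, 11.84, 11.64 and 11.66 at 2 h and 12.94, 13.05, 12.81 and 12.91 at 16 h, a rise of 1.16 ± 0.08. The mevalonate pathway enzymes Mvd (0.92 ± 0.05), Idi1 (0.86 ± 0.05) and Pmvk (0.86 ± 0.06) rose, each with all late arrays above all early ones. With median centring 6 of the 25 were called, all higher, and the median was 0.86.

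In promoters of the list, the CCAAT box stood in 16 of 17 genes with a window (94.1%) against 41.1% of all and 42.7% of tested genes, and the sterol element spelled TCACNCCAC in 1 of 17 (5.88%) against 1.44% and 1.41%. That gene was Hmgcs1, which makes HMG-CoA and was named after its value was seen; it rose by 1.03 ± 0.09, a call lost with median centring and with the mean of its probes. Its window is shown because it is the 1 member with that spelling, at chr13:119690154-119690303, plus strand, with the element in capitals.
Hmgcs1 (sterol element): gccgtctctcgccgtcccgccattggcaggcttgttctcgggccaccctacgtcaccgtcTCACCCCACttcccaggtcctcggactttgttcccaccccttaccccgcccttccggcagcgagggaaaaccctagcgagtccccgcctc

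Fatty acid synthesis split instead. Of 16 tested, 7 rose and 5 fell (median 0.06). The desaturase Scd2 (1.00 ± 0.10), the elongase Elovl6 (0.85 ± 0.09) and the acetyl-CoA carboxylase Acacb (1.02 ± 0.09, not called with the mean of its probes) rose. Me1, the malic enzyme that supplies NADPH, fell by 1.26 ± 0.08. Fads3, a desaturase-like gene, read 11.91, 12.15, 12.51 and 12.54 at 2 h and 8.96, 9.01, 9.48 and 9.46 at 16 h, a change of -3.05 ± 0.17 (8.28-fold, adjusted p = 8.45e-07). With median centring Acacb and Fads3 alone of the 16 kept their calls.

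STAT5 targets rose in part: 8 of 16 rose and 2 fell (median 0.15). Pim2, a survival kinase, read 8.27, 8.17, 8.24 and 7.93 at 2 h and 9.98, 10.29, 10.06 and 10.00 at 16 h, a rise of 1.93 ± 0.09 (3.81-fold, adjusted p = 3.74e-07), and Pim1 rose by 1.12 ± 0.11. Both kept their calls with median centring, while those of Socs2 (0.77 ± 0.10) and Osm (0.75 ± 0.07) were lost there. Bcl6, which STAT5 represses in several blood cells, fell by 1.19 ± 0.10. Among 27 components of growth factor and interleukin 3 signalling, 3 rose and 10 fell (6 without the 16 h array of replicate 3), with a median of -0.16. The phosphatase gene Ptpn2 rose by 1.44 ± 0.07, and the mTORC1 subunit gene Rptor read 12.99, 13.01, 13.14 and 13.12 at 2 h and 11.27, 11.38, 11.34 and 11.39 at 16 h, a change of -1.72 ± 0.05 (adjusted p = 4.97e-08). The adaptor Sh2b3 (-0.60 ± 0.08) and Hras (-0.34 ± 0.06) fell, calls lost with median centring. Il3ra, the alpha chain of the interleukin 3 receptor, rose by 0.41 ± 0.06, a call lost with median centring.

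**Figure D3:**
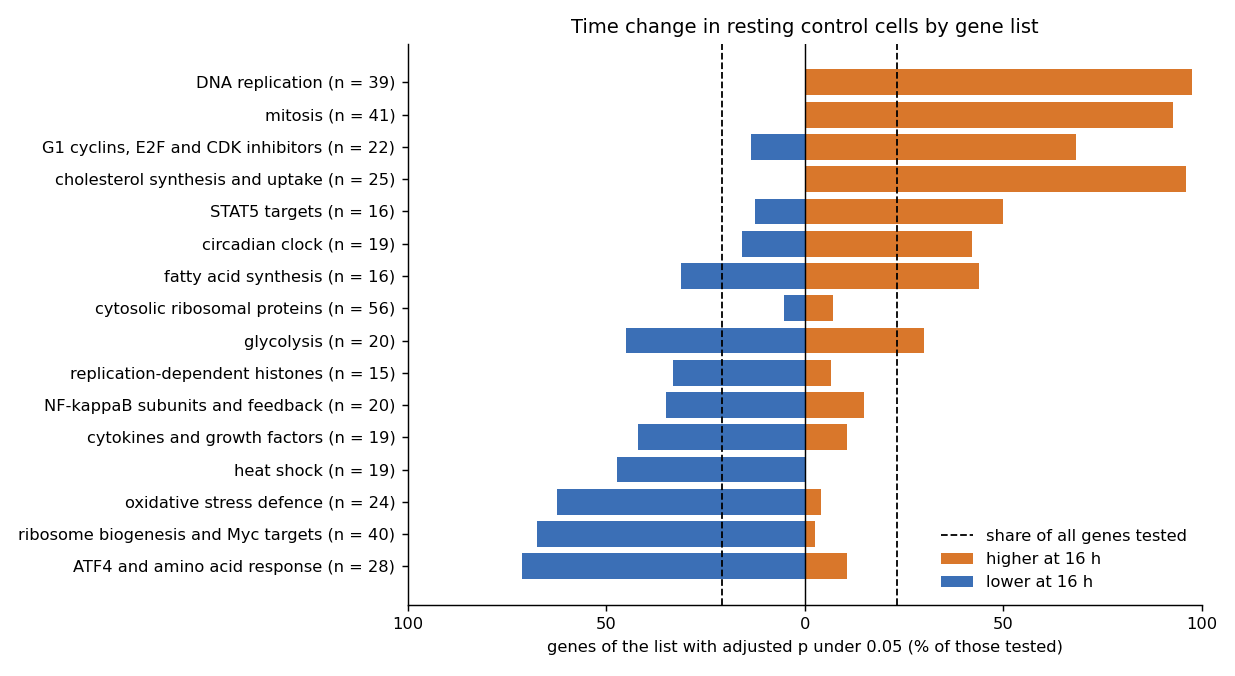
Share of the tested genes of each list (number in brackets) with an adjusted p under 0.05, higher at 16 h to the right and lower to the left, in %; dashed lines mark the shares over all genes, 23.1% and 21%. Replication, mitosis and cholesterol genes reach furthest to the right and the ATF4 list furthest to the left.

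The ATF4 and amino acid list fell. Of 28 tested, 20 fell and 3 rose (median -0.53), against 21% of all genes called lower. Phgdh, the first enzyme of serine synthesis, read 12.73, 12.68, 13.01 and 12.68 at 2 h and 10.98, 10.70, 11.09 and 10.84 at 16 h. No array of one time reached the other, and the fall was -1.87 ± 0.10 (3.66-fold, adjusted p = 7.49e-07). Vldlr, a lipoprotein receptor that ATF4 induces, read 9.0, 9.27, 9.74 and 9.45 at 2 h and 6.60, 6.94, 6.92 and 6.81 at 16 h, a change of -2.55 ± 0.15 (5.86-fold). Eif4ebp1, an inhibitor of cap-dependent translation, fell by 1.3 ± 0.10 and the tryptophanyl-tRNA synthetase Wars fell by 1.03 ± 0.06. The list did not move as one: Cth, which makes cysteine from cystathionine, rose by 0.93 ± 0.05 (adjusted p = 5.04e-07), from a level well above background on 2 of 4 early arrays, and its call was lost with the 75th percentile. The largest of the 3 rises was Chac1 (1.22, adjusted p = 0.00224), and Sesn2 rose by 0.37 (adjusted p = 0.0191). Chac1 and Sesn2 were named after their values were seen. With median centring 2 of the 28 fell and 2 rose by the test (median -0.41). Vldlr was among those that fell there, so most of Phgdh, Eif4ebp1 and Wars lost their calls.

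The ATF4-type element TGATGNAA stood in 9 of the 24 genes of the list with a window (37.5%) against 4.51% of all and 2.9% of tested genes. Chac1, which rose, was among the 9 with the element. Windows of Vldlr and of Asns, the asparagine synthetase gene (-1.19 ± 0.12, named after its value was seen, call lost with median centring), are shown because both genes fell and hold it, at chr19:27216770-27216919, plus strand, and chr6:7693160-7693292, minus strand. Capitals mark the element.
Vldlr (ATF4-type element): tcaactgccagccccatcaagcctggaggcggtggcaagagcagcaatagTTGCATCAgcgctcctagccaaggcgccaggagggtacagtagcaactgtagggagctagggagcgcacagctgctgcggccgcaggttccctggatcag
Asns (ATF4-type element): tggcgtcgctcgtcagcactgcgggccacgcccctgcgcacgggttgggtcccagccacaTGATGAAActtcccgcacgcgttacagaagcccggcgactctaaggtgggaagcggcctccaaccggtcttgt

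Antioxidant genes fell as well. Of 24 tested, 15 fell and 1 rose (median -0.39). Nqo1, a quinone reductase and common readout of NRF2, read 13.89, 13.67, 13.86 and 13.74 at 2 h and 12.49, 12.45, 12.47 and 12.44 at 16 h, a change of -1.33 ± 0.06 (2.51-fold, adjusted p = 2.38e-07). Gclm, a subunit of the enzyme that starts glutathione synthesis, read 10.33, 10.20, 10.22 and 10.12 at 2 h and 8.91, 8.79, 8.75 and 8.72 at 16 h, a change of -1.43 ± 0.06. G6pdx, which feeds NADPH into that system, fell by 1.01 ± 0.06, the thioredoxin reductase Txnrd1 fell by 0.87 ± 0.08 and the peroxiredoxin Prdx5 fell by 0.84 ± 0.09. With median centring 3 of the 24 were called, all lower, Gclm among them.

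The antioxidant element core TGACNNNGC stood in 8 of 20 of these genes with a window (40%) against 14% of all and 17% of tested genes. Windows of Gclm and of the sulfiredoxin gene Srxn1 (-1.75 ± 0.20, named after its value was seen, call lost with median centring) are shown because both fell and hold it, at chr3:122245363-122245512, plus strand, and chr2:152105492-152105573, plus strand. Capitals mark the core.
Gclm (antioxidant element core): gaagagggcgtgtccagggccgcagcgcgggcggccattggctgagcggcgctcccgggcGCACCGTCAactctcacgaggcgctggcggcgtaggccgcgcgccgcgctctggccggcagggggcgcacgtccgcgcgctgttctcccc
Srxn1 (antioxidant element core): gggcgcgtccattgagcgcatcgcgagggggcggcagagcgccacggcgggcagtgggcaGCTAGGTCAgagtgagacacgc

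Heat shock genes fell or did not pass: 9 of 19 fell and none rose (median -0.18, and 0.00 with median centring, which left 2 called). Hspa1a, the inducible Hsp70, read 10.30, 10.12, 10.08 and 10.15 at 2 h and 7.83, 7.55, 7.92 and 7.53 at 16 h, a change of -2.46 ± 0.10 (5.49-fold, adjusted p = 1.41e-07); its near-identical copy Hspa1b may share the probe. The small heat shock gene Hspb1 fell by 0.95 ± 0.07 and the HSP70 co-chaperone Bag3 fell by 0.89 ± 0.06. Hsph1 (-0.47 ± 0.06) and the mitochondrial Hspa9 (-0.63 ± 0.09) fell too, calls lost with median centring. Hspa1a was among the 2 still called there, so Hspb1 and Bag3 did not both keep their calls. The heat shock element stood in 4 of 13 genes of the list with a window (30.8%) against 0.662% of all and 0.551% of tested genes.

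Ribosome assembly fell while the ribosomal proteins stayed near 0. Of 40 genes of ribosome biogenesis and Myc, 27 fell and 1 rose (Npm1, 0.21, named after its value was seen and not called with the replicate number as a block or without any one of 5 arrays), with a median of -0.35. The nucleolar proteins Utp20 (-0.85 ± 0.07), Rrp9 (-0.72 ± 0.05) and Mybbp1a (-0.80 ± 0.06), the RNA polymerase I subunit Polr1b (-0.70 ± 0.05) and the spermidine synthase Srm (-0.57 ± 0.05) fell. None of the 40 passed with median centring (median -0.21). The E-box CACGTG stood in 8 of 34 genes with a window (23.5%) against 8.09% of all and 11.5% of tested genes. Of 56 cytosolic ribosomal protein genes 4 rose and 3 fell (median 0.02), against 23.1% and 21% of all genes, and many have processed pseudogenes that can share a probe. The called members with the smallest adjusted p were Rps15 (-0.44 ± 0.09), Rps9 (-0.34 ± 0.09), Rplp2 (0.33 ± 0.08), Rpl14 (0.23 ± 0.06) and Rps25 (0.16 ± 0.05), none called with median centring.

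The histamine-forming enzyme was lower at 16 h. Hdc, the enzyme that makes histamine from histidine and a marker of mast cells, read 13.18, 12.42, 12.98 and 12.44 at 2 h and 10.30, 10.40, 10.33 and 10.43 at 16 h. Its late arrays lay close together and far below all early ones, a change of -2.39 ± 0.16 (5.25-fold, adjusted p = 2.84e-06). Ddc, the decarboxylase of serotonin synthesis, read 12.18, 12.50, 12.48 and 12.23 at 2 h and 10.73, 11.04, 11.03 and 10.78 at 16 h, a change of -1.45 ± 0.10 (adjusted p = 3.78e-06, lost with median centring). Over 11 genes of histamine, serotonin and proteoglycans 4 rose and 4 fell (median -0.01, and 0.18 with median centring). The heparan sulfate enzymes Hs3st1 (-0.40 ± 0.05) and Hs6st1 (-0.37 ± 0.06) fell and Ndst2 (0.39 ± 0.07) rose, calls lost with median centring. Eicosanoid synthesis lost Ptgs1 (-1.06 ± 0.07) and Ptgs2 (-0.76 ± 0.13), the cyclooxygenases, the 5-lipoxygenase partner Alox5ap (-0.70 ± 0.13), and the phospholipase Pla2g4a (-0.74 ± 0.08), with 5 of 11 lower and 1 higher (median 0.02, and -0.16 with the 75th percentile); these calls were lost with median centring. The prostaglandin E synthase Ptges was not well above background on any 16 h array and fell at least 1.29-fold, a call lost with the 75th percentile. At 16 h Ptgs2 was well above background on 1 of 4 arrays.

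The counts for granule proteases were not far from those over all genes. Of 14 tested, 4 fell (28.6%) and 2 rose (14.3%), against 21% and 23.1% of all genes (median -0.06, and 0.11 with median centring). The tryptase Tpsg1 fell by 0.59 ± 0.06, the chymase Mcpt1 fell by 0.79 ± 0.12 and the granzyme Gzmc fell by 1.11 ± 0.19, of which Mcpt1 alone was called with median centring. The 2 rises, Mcpt8 (0.45 ± 0.16) and Mcpt9 (0.31 ± 0.11), each lost the call when single arrays were left out, and 0 or 1 remained without any one array. Near-identical Mcpt genes can share signal. Among 29 genes of signalling from the IgE receptor 10 rose (34.5%) and 6 fell (20.7%), against 23.1% and 21% of all genes (median 0.04). The adaptor Lat fell by 0.96 ± 0.06, a call lost with median centring, while the exchange factor Rasgrp1 rose by 0.83 ± 0.08. The kinase Fyn (-0.81 ± 0.08) fell and the exchange factor Rasgrp4 (0.54 ± 0.07) rose, calls that were lost with median centring.

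Several cytokine and receptor genes were lower at 16 h. Tnfrsf9 (4-1BB, a costimulatory receptor) read 11.37, 11.73, 11.61 and 12.05 at 2 h and 8.48, 8.42, 8.40 and 8.52 at 16 h, a change of -3.24 ± 0.12 (9.43-fold, adjusted p = 1.2e-07), and its ligand Tnfsf9 fell by 0.70 ± 0.05. Tnf read 10.44, 10.16, 10.21 and 10.36 at 2 h and 9.07, 9.0, 9.11 and 9.08 at 16 h, a change of -1.23 ± 0.07, and Il1b fell by 0.91 ± 0.14. Of 19 cytokines and growth factors 8 fell and 2 rose (median -0.26), with Vegfb higher by 0.93 ± 0.08 and Tgfb1 at -0.68 ± 0.10. Of 20 NF-kappaB subunits and feedback genes 7 fell and 3 rose (median -0.15), among them the deubiquitinase Tnfaip3 (-0.77 ± 0.06), the subunit Nfkb2 (-0.57 ± 0.07) and the adhesion receptor Icam1 (-0.54 ± 0.11) and, in the other direction, Nfkb1 (0.51 ± 0.05) and the inhibitor Nfkbie (0.34 ± 0.05). Of these cytokine, receptor and NF-kappaB genes, Tnfrsf9 and Vegfb were called with median centring.

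Havcr2, which encodes TIM-3, read 13.40, 13.45, 13.67 and 13.53 at 2 h and 12.82, 12.81, 12.90 and 12.92 at 16 h, a change of -0.65 ± 0.07 (1.57-fold, adjusted p = 3.97e-05, lost with median centring). No late array reached an early one. Of 12 genes of the TIM family, its ligands and inhibitory receptors, 5 fell and none rose (median -0.09). With median centring the median was 0.01 and 1 of the 12 was called, lower. With the replicate number as a block 2 were called higher. The PD-1 ligand Pdcd1lg2 read 10.37, 10.55, 10.68 and 10.60 at 2 h and 8.82, 9.01, 9.02 and 9.19 at 16 h, a change of -1.54 ± 0.09, and the inhibitory receptor Cd300a fell by 0.89 ± 0.08. Lag3 fell by 0.19 ± 0.06, a call lost without either of 2 arrays. Ceacam1 was not well above background on any 16 h array, so that its fall is at least 1.21-fold, a call lost with median centring and with the 75th percentile.

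Metabolic and clock genes changed in both directions. Of 20 glycolysis genes 6 rose and 9 fell (median -0.02, and 0.16 with median centring): the enolase Eno2 fell by 1.35 ± 0.07 and Pgk1 fell by 0.62 ± 0.07, while the aldolase Aldoc rose by 1.19 ± 0.10 and the phosphofructokinases Pfkm by 1.08 ± 0.06 and Pfkl by 0.55 ± 0.06. Of 19 clock genes 8 rose and 3 fell (median 0.08). The core activator Arntl (BMAL1) fell by 0.81 ± 0.06, and Per1 (0.68 ± 0.06), Nr1d2 (0.94 ± 0.07) and Dbp (0.68 ± 0.07), which it activates, rose. Hlf, a PAR bZIP factor related to Dbp, read 10.19, 10.85, 10.70 and 10.91 at 2 h and 8.67, 9.07, 9.01 and 8.81 at 16 h, a change of -1.77 ± 0.15 (3.41-fold). With median centring Hlf, Eno2 and Pfkm kept their calls and the others named here did not. The clock hour of the 2 harvests is not given in the labels.

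Among the largest rises not yet named, Pigz, a mannosyltransferase of GPI anchor synthesis, led with 8.19, 8.5, 8.31 and 8.33 at 2 h and 11.57, 11.87, 11.86 and 11.75 at 16 h, a rise of 3.43 ± 0.09 (10.8-fold, adjusted p = 2.16e-08). Rapgef3 (EPAC1, a cAMP-activated exchange factor for Rap) rose by 2.57 ± 0.09, the cytochrome P450 gene Cyp4a12a by 2.26 ± 0.06 and the mitochondrial peptidase gene Immp2l by 2.17 ± 0.07. Cyp4a12a has a near-identical copy, Cyp4a12b, and the other kept probe of Immp2l rose by 1.05. Cracd (2.12 ± 0.07), Mamdc2 (2.08 ± 0.07) and Ctnna2 (2.07 ± 0.05, an alpha catenin) complete the list with the axonemal dynein Dnah12 (2.10 ± 0.15), for which another probe was called in the opposite direction.

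Among the falls, Sv2c, a synaptic vesicle glycoprotein, read 10.44, 10.52, 10.94 and 10.70 at 2 h and 6.27, 6.39, 6.30 and 6.35 at 16 h. Its early arrays stood more than 4 log2 units above the late ones, of which 2 of 4 were well above background, and the measured fall was -4.32 ± 0.10 (adjusted p = 1.53e-08). Fxyd6, a regulator of the sodium pump, read 12.25, 11.90, 12.56 and 12.22 at 2 h and 8.92, 8.64, 9.24 and 8.93 at 16 h, a change of -3.30 ± 0.15 (9.82-fold), and Nkain1, which interacts with that pump, fell by 2.72 ± 0.06. The receptor phosphatase Ptprf (-2.60 ± 0.07), the splicing factor Htatsf1 (-2.55 ± 0.08), the caveolar coat protein Cavin1 (-2.27 ± 0.08) and the tyrosine kinase Matk (-2.24 ± 0.07) fell with Ttc39c (-2.35 ± 0.21), Crip2 (-2.33 ± 0.12) and Gfod1 (-2.24 ± 0.10). All 30 of these largest changes, rises and falls, were picked among genes whose groups did not overlap, which held for 43.3% of all genes.

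Interferon-stimulated genes also differed between replicate numbers. Of 34 tested, 5 rose (14.7%, below the 23.1% of all genes) and none fell. With the replicate number as a block 12 rose and 6 fell, where the shares of all genes were 24.3% and 21.8%. Within the slides the median was -0.07, -0.70 and 1.40. Psmb9, an immunoproteasome subunit, read 11.69, 11.16, 11.43 and 11.65 at 2 h and 12.47, 12.36, 12.48 and 12.51 at 16 h, a rise of 0.97 ± 0.11 (adjusted p = 7.68e-05) that held with the block, with the slide and without any one array. Stat2, a subunit of the interferon-activated factor, rose by 0.66 ± 0.18, a call lost with median centring, while Psmb8 (0.23 ± 0.07) lost its call without any one of 4 arrays and Irf1 (0.31 ± 0.11) without any one of 7. Leaving out single arrays gave 2 to 9 genes higher (2 without the 2 h array of replicate 2 or of replicate 3, 3 without that of replicate 4 or the 16 h array of replicate 1 or 3, and 9 without the 2 h array of replicate 1) and 0 to 3 lower.

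Chemokine counts also moved with the replicate number in the fit. Of 16 tested, 4 fell (25%) and 1 rose (6.25%), against 21% and 23.1% of all genes (median -0.37). With the block 10 fell and 1 rose, against 21.8% and 24.3%, and 8 fell without the 2 h array of replicate 2. The rise, Ccl6 (0.45 ± 0.15), was lost without any one of 4 arrays. Ccl1, a mast cell product after IgE stimulation, read 8.0, 8.06, 7.92 and 8.17 at 2 h and 6.27, 6.41, 6.41 and 6.36 at 16 h, a change of -1.68 ± 0.06 (3.2-fold, adjusted p = 1.32e-07), with replicates close together. Ccl7 fell by 1.10 ± 0.14 and Cx3cl1 fell by 0.89 ± 0.16. With median centring 1 of the 16 chemokines was called, lower. Tnf and Il1b are also macrophage products, and the part of the macrophage signal in their change was not tested.

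The activated control cells were read beside the resting ones to ask which changes also occur after antigen. Between 2 h and 16 h, 62.5% of 16214 genes were called in activated cells (34.6% higher, 27.8% lower), and over those genes the time changes of resting and activated cells correlated at r = 0.771 (across genes, which are not replicates). The difference between both changes, from 1 fit of all 16 arrays normalized together, passed for 34.5% of genes, 13.9% above 0 and 20.6% below. All 30 of the largest resting changes were called in activated cells in the same direction, as were 5587 of all 6950 genes called at rest. Replication genes rose in both, with a median of 1.35 in activated cells, and for 20 of 39 the resting rise was smaller by the test of the difference. For Rrm2 the difference did not pass: it changed by 2.16 in resting and 2.20 in activated cells (-0.01, adjusted p = 0.938). Mki67 changed by 1.90 in activated cells, a difference of -0.33 (adjusted p = 0.0278) that was lost with median centring and without any one of 6 arrays.

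Cholesterol genes were the other way round: for 14 of 25 the resting change was above the activated one and for 5 below. Insig1 changed by 0.68 in activated cells (difference 0.51, adjusted p = 0.000763, lost with median centring). For 21 of 28 ATF4 genes the resting change lay above the activated one, whose median was -1.19. Vldlr changed by -3.94 in activated cells (difference 1.38, adjusted p = 2.17e-05) and Hspa1a by -3.62 (difference 1.15, adjusted p = 5.52e-05). For Havcr2 the activated change was -1.54 (difference 0.88, adjusted p = 4.91e-07). Kit rose in activated cells by 1.01 and its resting change was lower than that by the test (difference -0.90, adjusted p = 6.47e-06). Tnfrsf9 fell less in activated cells (-1.80, difference -1.47, adjusted p = 9.16e-07).

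The widest differences above 0 were in genes with high levels 2 h after antigen. Crtam, an adhesion receptor of activated lymphocytes, changed by 0.29 in resting and -4.48 in activated cells (difference 4.77, adjusted p = 1.14e-13). Its mean at 2 h was 11.45 in activated cells, and its resting arrays read 6.57, 6.56, 6.51 and 6.62 at 2 h and 6.79, 6.86, 6.85 and 6.93 at 16 h. Ccl1 changed by -6.35 in activated cells (difference 4.68), the G-protein regulator Rgs16 by -4.20 (difference 3.60) and the C5a receptor C5ar2 by -4.24 (difference 3.29). Egr3, an immediate early factor, rose in resting cells by 1.05 ± 0.11 and changed by -2.35 in activated ones (difference 3.40, adjusted p = 1.92e-10).

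In the opposite direction stood Fhdc1, a formin-like gene that fell by 2.05 ± 0.14 in resting cells and changed by 0.37 in activated ones (difference -2.45, adjusted p = 4.69e-08). The potassium channel gene Kcnd2 fell by 0.92 ± 0.11 at rest and rose by 1.28 with antigen (difference -2.20). Il15, a cytokine that acts on lymphocytes, rose more in activated cells, by 2.56, than at rest, by 0.32 (difference -2.23). Depdc1b also rose more in activated cells, by 2.95, than at rest, by 0.83 (difference -2.11). Apoc2, an apolipoprotein, changed by -0.14 at rest, a call lost with the block, and by 1.87 with antigen (difference -2.01).

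**Figure D4:**
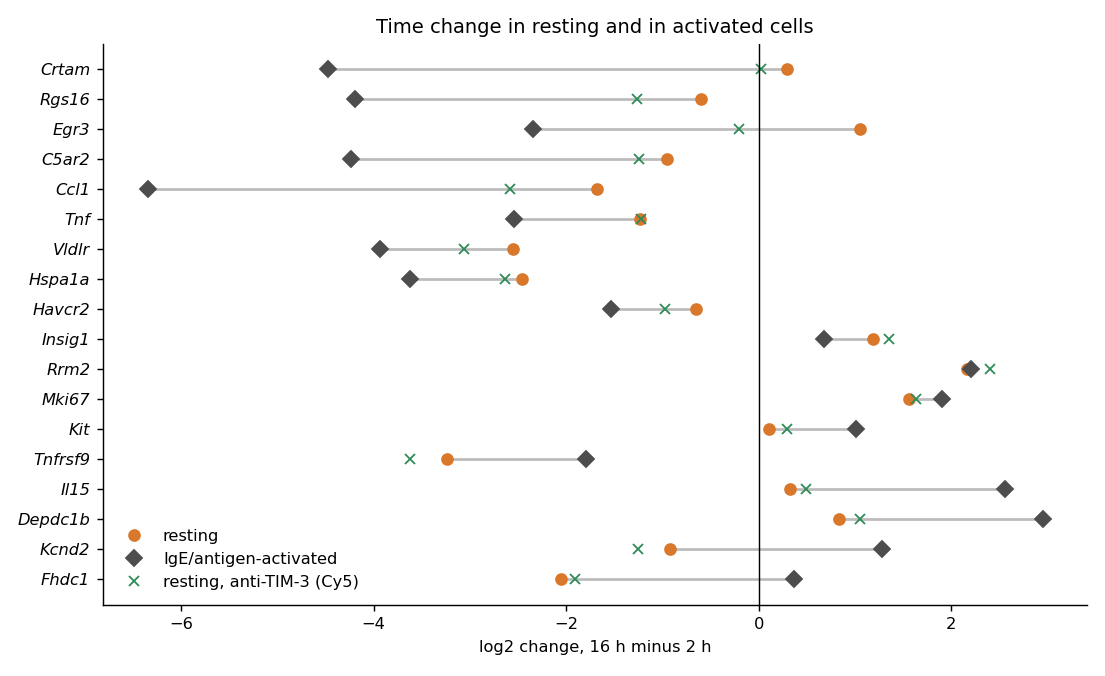
Log2 change from 2 h to 16 h of 18 genes in resting control cells (circles), in activated control cells (diamonds) and in the anti-TIM-3 cells of the resting arrays (crosses). Crtam, Rgs16, C5ar2 and Ccl1 lie far apart between resting and activated cells, while Rrm2 lies close together.

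The anti-TIM-3 cells on the same 8 arrays gave a second reading of time at rest. They share arrays with the control cells but not RNA, and the dyes were never swapped. Of 16349 genes tested, 42.4% were called (22.1% higher, 20.3% lower), and the changes in both channels correlated at r = 0.939 over 15670 genes. All 30 of the largest changes were called in Cy5 in the same direction, as were 5471 of the 6941 called genes tested in Cy5. The replication list had 39 of 39 higher, the cholesterol list 23 of 25 higher and the ATF4 list 19 lower and 2 higher. For Egr3 the values were 1.05 in Cy3 and -0.21 in Cy5, for Ccl1 -1.68 and -2.58, and for Ccl3 -0.36 (a call lost without any one of 6 arrays) and -1.66. The differences between the channels were not tested.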

How the data were processed

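Each of 16 Agilent 2-colour whole-genome arrays held control cells in Cy3 and anti-TIM-3 cells in Cy5. The deposited files hold spot intensity values that the authors extracted with Feature Extraction 9.1.3.1, per the file headers, and they are not yet normalized. The mean signal was corrected for background (normexp, offset 50) and quantile-normalized over the 8 Cy3 arrays with limma 3.58.1 in R 4.3.3. Control and outlier spots were left out (162 of 125912 gene values). Probes well above background on at least 3 of 4 arrays of a group were kept, with the brightest probe per gene. Probes were named from the files and RefSeq. Differences are 16 h minus 2 h on the log2 scale ± SE, tested two-sided with limma (lmFit and eBayes) and adjusted by Benjamini-Hochberg over all genes tested, at 0.05. The scripts were tested on simulated data.

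Same-numbered arrays of both times deviated together (r = 0.35, 0.51, 0.24 and 0.24 for replicates 1 to 4). For pairs with different numbers r ran from -0.38 to 0.23, highest for the early array of replicate 4 with the late one of replicate 1. The arrays of replicate 4 also shared a slide. The other pairs on one slide had negative r, and the part of the slide was not tested. The numbers of the titles were taken to pair the samples, which is less certain where r was 0.24. The blocked value is given where it changes a call. Named genes are the 15 largest rises and falls, up to 5 members of each list with the smallest adjusted p, the mast cell markers, and the 5 largest differences from activated cells in each direction. The members and lists were chosen with earlier results of these data known. Alternatives were other scalings, filters, probe summaries, blocks and leaving out each array. The number of arrays limits the precision. Some selected genes are not reported here; lists not discussed in the text are left out.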

Additional observations from a re-analysis of the deposited data

Results flagged for a closer look

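Over 341 groups of 4 arrays, 14 held 1 array far from the other 3. Chance gives about 1 in 20, so these flags were not more frequent than chance. On the 16 h array of replicate 1, Cxcl10 (9.23), Irf1 (12.71), Stat2 (11.31) and Ptgs2 (6.42) stood above the rest. Other single arrays stood apart at 16 h for Cd300a (11.83) and Polr1b (8.25) in replicate 2, Kit (14.55) in replicate 3 and Pclaf (12.72) in replicate 4. At 2 h they did so for Acacb (7.82), C1qc (6.92) and Vegfb (12.09) in replicate 1, Osm (9.95) in replicate 2, Phgdh (13.01) in replicate 3 and Matk (12.02) in replicate 4. These are log2 intensities.

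The change with time differed between resting and activated control cells, by limma's test of the difference, for 17 genes described above. The resting change was above the activated one for Crtam (4.77), Ccl1 (4.68), Rgs16 (3.60), Egr3 (3.40), C5ar2 (3.29), Vldlr (1.38), Hspa1a (1.15), Havcr2 (0.88) and Insig1 (0.51). It was below for Fhdc1 (-2.45), Il15 (-2.23), Kcnd2 (-2.20), Depdc1b (-2.11), Apoc2 (-2.01), Tnfrsf9 (-1.47), Kit (-0.90) and Mki67 (-0.33).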

How the results depend on the processing

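Scaling mattered most. The 3641 genes higher and 3309 lower at 16 h became 2066 and 2195 with the 75th percentile and 721 and 236 with median centring. Median centring also left 588 genes above and 111 below 0 in the difference from activated cells (2251 and 3348 before) and 1012 higher and 281 lower in Cy5 (3611 and 3314 before). Without any one array the resting counts ran from 3209 to 3584 and from 2815 to 3232, the difference counts from 2062 to 2322 and from 3038 to 3454, and the Cy5 counts from 3143 to 3580 and from 2833 to 3283. With the replicate number as a block, 3832 rose and 3433 fell. Mcpt4 turned to 0.13 with the mean of its probes. With median centring the list medians of TIM genes (0.01), glycolysis (0.16), granule proteases (0.11) and histamine genes (0.18) changed sign and that of heat shock reached 0.00. So did eicosanoid genes (-0.16, 75th percentile), glycolysis (-0.04 to 0.01 over the arrays left out, highest without the 16 h array of replicate 2), granule proteases (0.02, mean of probes) and histamine genes (0.07, processed signal). Smaller sign changes were those of interferon-stimulated genes (-0.01 without the 16 h array of replicate 1) and ribosomal proteins (-0.01 without the 2 h array of replicate 3), and the histamine and eicosanoid medians lay near 0 with either sign under further settings. The cause of these shifts was not tested. A separate scan block was not run, since each slide was scanned once.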
